A study of Rattus norvegicus with 65 samples.

Results

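Liver RNA of male Sprague-Dawley rats given repeated doses of ME or of SN was compared gene by gene, with 3 rats and 3 arrays in each group. These 6 arrays were chosen by their titles, out of 65 arrays in the series and 24 in its test set. The rats were 6 weeks old, and each array held RNA of 1 liver, biotin-labelled and hybridised to an Affymetrix rat array. ME long rats were labelled with 3 administrations at a dose of 300 and SN long rats with 3 administrations at a dose of 50. Each compound was given at a single dose level, so the compound and its dose cannot be told apart here. The labels give no dose unit. The matching short groups had a single administration at the same doses, with 3 rats each. The labels give 72 hours for the long and 3 hours for the short groups. The treatment protocol instead describes autopsy 24 hours after dosing, so the groups are called long and short, as in the titles. The other groups of the test set were DCP and Urethane, short and long, with 3 rats each. The test set holds no untreated rats, so every difference is between compounds or durations and none is an effect against a control. The design text lists methyleugenol and sodium nitrite among its hepatocarcinogens, and their initials match ME and SN. It does not pair names with abbreviations, and the titles' names are used.

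Methyleugenol is an alkenylbenzene of herbs and spices that liver enzymes convert, by hydroxylation and sulfation, into a form that binds DNA. Sodium nitrite is a food preservative salt that can oxidise haemoglobin and can give rise to N-nitroso compounds. The p53 pathway, with targets such as Cdkn1a and Mdm2, is a well known response to DNA damage in liver.

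Values are the deposited log2 signals, and a difference is ME minus SN on that scale, so that 1 unit is a doubling of signal. Each difference is given with its SE from a limma fit, and "called" means an adjusted p below 0.05 by the Benjamini-Hochberg method over the 10213 genes tested. After repeated dosing, 4 genes were called and all 4 were lower with ME: Fhit, Wwox, Immp2l and Sugct. This is 0.0392% of the genes tested, and no gene was called higher. At an unadjusted p under 0.05 there were 555 genes (5.43%), 254 higher and 301 lower with ME. The median difference of all genes tested was -0.004.

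The promoter windows of the 4 called genes are shown because these genes were lower together. Each runs from 250 bases before to 50 bases after the gene's start in RefSeq, build GRCr8, plus strand, 5′ to 3′, and capitals mark CG pairs.
Fhit (chr15:16398002-16398301): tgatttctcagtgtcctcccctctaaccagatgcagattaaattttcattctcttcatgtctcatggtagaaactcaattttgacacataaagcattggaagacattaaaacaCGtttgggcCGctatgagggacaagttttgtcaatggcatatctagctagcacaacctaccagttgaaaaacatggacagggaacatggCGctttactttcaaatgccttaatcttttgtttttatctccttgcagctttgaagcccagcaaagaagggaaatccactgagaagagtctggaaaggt
Wwox (chr19:59341134-59341433): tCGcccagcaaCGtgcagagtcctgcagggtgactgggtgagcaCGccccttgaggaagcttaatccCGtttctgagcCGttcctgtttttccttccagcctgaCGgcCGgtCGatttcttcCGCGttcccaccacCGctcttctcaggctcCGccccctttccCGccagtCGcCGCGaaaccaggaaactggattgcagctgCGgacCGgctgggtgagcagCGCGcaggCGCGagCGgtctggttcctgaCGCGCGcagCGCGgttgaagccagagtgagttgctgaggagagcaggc
Immp2l (chr6:63796979-63797278): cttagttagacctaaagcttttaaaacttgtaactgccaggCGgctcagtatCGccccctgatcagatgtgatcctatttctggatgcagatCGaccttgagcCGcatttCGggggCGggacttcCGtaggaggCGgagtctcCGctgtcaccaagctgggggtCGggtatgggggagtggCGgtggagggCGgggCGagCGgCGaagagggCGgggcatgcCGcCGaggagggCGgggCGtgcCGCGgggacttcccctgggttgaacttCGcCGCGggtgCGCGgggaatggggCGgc
Sugct (chr17:52071802-52072101): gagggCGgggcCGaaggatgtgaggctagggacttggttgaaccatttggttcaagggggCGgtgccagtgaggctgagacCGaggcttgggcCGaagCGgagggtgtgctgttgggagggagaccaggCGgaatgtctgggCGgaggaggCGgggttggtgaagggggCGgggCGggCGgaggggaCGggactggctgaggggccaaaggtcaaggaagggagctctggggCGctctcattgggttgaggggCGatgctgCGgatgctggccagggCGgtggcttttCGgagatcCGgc
The Fhit window was the poorest in CG pairs of the 4. It held 3 CG pairs and 40.7% G or C, Wwox 28 pairs and 64.0%, Immp2l 28 pairs and 65%, and Sugct 19 pairs and 67.3%. The median over all 27457 windows was 7 pairs and 52.3%. The motif GGGCGG, which itself holds a CG pair, was searched on both strands and counted without overlapping copies. It occurred 0 times in Fhit, 1 time in Wwox, 5 times in Immp2l and 6 times in Sugct, and 34.9% of all windows held it. TATAAA, searched on both strands, was in none of the 4 windows and in 14.3% of all windows. The Fhit window lies 32.9 kb and the Wwox window 3.0 kb inside the outermost start of its gene, so for these genes the window belongs to a later start.

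Fhit encodes a diadenosine triphosphate hydrolase and spans a well known fragile site in human cells. Its log2 signal was 4.48, 4.77 and 4.36 in the 3 ME long rats and 6.31, 6.54 and 6.43 in the 3 SN long rats. Every ME rat was far below every SN rat. The difference was -1.89 ± 0.17 (limma, adjusted p = 7.28e-06, 95% interval -2.24 to -1.54), which puts the ME signal at 0.27 of the SN signal.

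Wwox encodes a WW-domain oxidoreductase and also covers a human fragile site. Its signal was 4.56, 4.63 and 4.80 with ME and 6.14, 6.06 and 6.00 with SN, again without overlap. The difference was -1.40 ± 0.13 (limma, adjusted p = 7.68e-06, interval -1.67 to -1.13). Wwox has 3 probe sets, with means of 5.90, 5.85 and 4.70 over all arrays, and the brightest was used by rule. The other two differed by 0.10 ± 0.10 and 0.05 ± 0.11, so the lower signal was measured by 1 of 3 probe sets.

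Immp2l encodes a subunit of the peptidase of the inner mitochondrial membrane. Its signal was 6.53, 6.66 and 6.74 with ME and 7.53, 7.63 and 7.59 with SN. The groups did not overlap, and the difference was -0.94 ± 0.11 (limma, adjusted p = 0.000274, interval -1.17 to -0.70).

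Sugct encodes a CoA transferase that activates glutarate in lysine and tryptophan breakdown. Its signal was 6.80, 7.05 and 7.20 with ME and 7.79, 7.93 and 7.72 with SN. The groups did not overlap, and the difference was -0.79 ± 0.13 (limma, adjusted p = 0.0138, interval -1.06 to -0.53). Sugct lost its call without ME long rat 1, ME long rat 2, SN long rat 1 or SN long rat 2 (limma, adjusted p up to 0.154), and with only the 6 compared arrays in the fit (adjusted p = 0.401). Fhit, Wwox and Immp2l have 14, 13 and 15 alternatives in which they were tested, and they were called in each. For Wwox these leave out the mean of all its probe sets, which fell under the filter. The disagreement of its probe sets was therefore not tested by them. Fhit, Immp2l and Sugct have 1 probe set each. In bulk liver, fewer cells of a type and less RNA per cell cannot be told apart.

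The same genes were then followed in the single-dose groups. With ME short, Fhit was at 6.23, 6.03 and 6.24, Wwox at 6.33, 5.63 and 6.04, Immp2l at 7.41, 7.49 and 7.52, and Sugct at 7.70, 7.61 and 7.66. These values lie above every ME long rat for each gene. After the single dose, ME minus SN was -0.25 ± 0.17 for Fhit, -0.11 ± 0.13 for Wwox, -0.16 ± 0.11 for Immp2l and -0.16 ± 0.13 for Sugct (limma, adjusted p = 0.474, 0.715, 0.501 and 0.548). From ME short to ME long all 4 fell, with Fhit at -1.63 ± 0.17, Wwox at -1.34 ± 0.13, Immp2l at -0.83 ± 0.11 and Sugct at -0.64 ± 0.13 (limma, adjusted p = 1.62e-05, 1.15e-05, 0.000245 and 0.00313). In that comparison 17.0% of genes were called. From SN short to SN long the values were 0.01 ± 0.17, -0.04 ± 0.13, -0.05 ± 0.11 and -0.01 ± 0.13, none called, against 4.86% of genes called. These duration comparisons share arrays with the main one. The test of whether the ME to SN difference itself changed with duration gave -1.64 ± 0.24 for Fhit and -1.29 ± 0.18 for Wwox (limma, adjusted p = 0.00428 for each). It gave -0.78 ± 0.16 for Immp2l (adjusted p = 0.0511) and -0.63 ± 0.18 for Sugct (adjusted p = 0.161), which were not called.

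**Figure D1:**
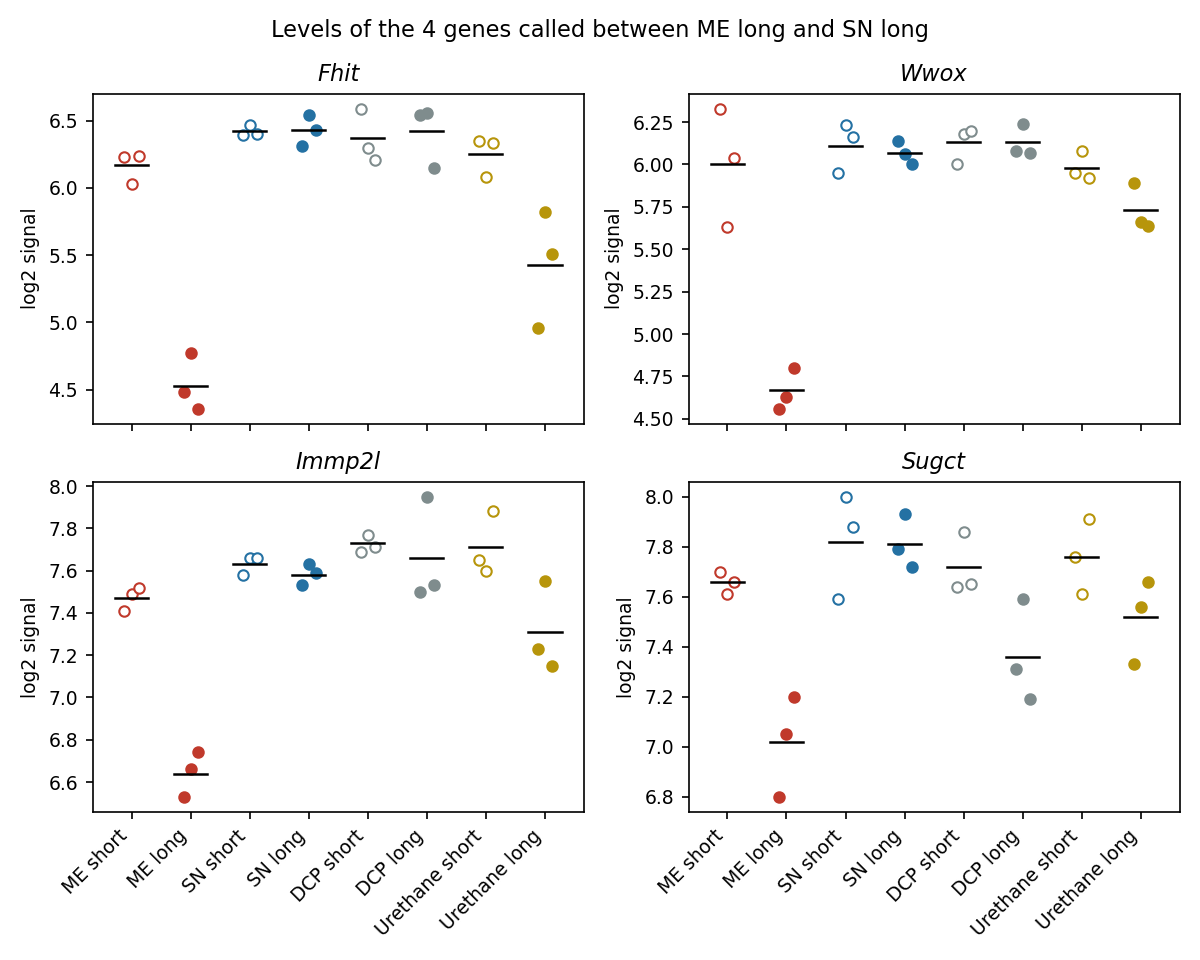
Log2 signal (vertical axes) of the 4 called genes in the 8 test-set groups, with 1 point per rat, open for short and filled for long groups, and a black line at the group mean. In each panel the 3 ME long rats are the lowest or among the lowest of all; Fhit in ME long sits at 4.36 to 4.77 and in SN long at 6.31 to 6.54.

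The other test compounds give a frame for these levels. Fhit in Urethane long was at 4.96, 5.82 and 5.51, between ME long and SN long, and in DCP long at 6.54, 6.56 and 6.15. Wwox in Urethane long was at 5.89, 5.66 and 5.64 and in DCP long at 6.08, 6.24 and 6.07. Immp2l was at 7.23, 7.55 and 7.15 in Urethane long and at 7.50, 7.95 and 7.53 in DCP long. Sugct was at 7.33, 7.56 and 7.66 in Urethane long and at 7.31, 7.59 and 7.19 in DCP long, where the lowest DCP rat lay just under the highest ME long rat at 7.20. The genotoxic training set appears to have been normalized apart and is read only within itself. There Fhit averaged 6.43 ± 0.06 in controls (SD, n = 3), 4.63 ± 0.19 in 3MeDAB long, 4.79 ± 0.24 in DEN long and 5.36 ± 0.22 in 2-AAF long. Wwox averaged 5.93 in those controls and 4.96, 5.35 and 5.36 in 3MeDAB, DEN and 2-AAF long. Immp2l averaged 8.53 in the controls and 6.18, 7.28 and 8.04 in the same 3 groups. Sugct averaged 8.23 ± 0.14 in those controls, 6.21 ± 0.11 in 3MeDAB long, 6.72 ± 0.05 in DEN long and 8.24 ± 0.20 in 2-AAF long. In the nongenotoxic set Fhit averaged 6.35 ± 0.12 in controls, 6.42 ± 0.12 in Clofibrate long and 6.01 ± 0.11 in DL-Ethionine long. Wwox averaged 6.24 in these controls, 6.31 in Clofibrate long and 5.69 in DL-Ethionine long. Immp2l averaged 8.58, 8.6 and 7.88 in the same order of groups, and Sugct 8.57, 8.36 and 8.05. Each of these genes was lower in DL-Ethionine long than in the controls of that set. These training-set levels are descriptions and were not tested here.

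The 4 called genes are very long, a feature looked at after their values were seen. Fhit spans 1508 kb, Wwox 931 kb, Immp2l 900 kb and Sugct 858 kb in RefSeq, against a median of 23129 bases over the 10207 tested genes with a span. They rank 4, 10, 12 and 15 by span, and all 4 are among the 61 genes over 500000 bases. Of the 20 longest genes, the 16 others were not called and lay between -0.21 and 0.21. Their mean levels over ME long and SN long ran from 4.48 for Lrmda to 10.91 for Ptprd. Dmd (5.33), Marchf1 (5.43), Grm8 (5.64) and Lrmda lay under the test-set median of 5.65, where a lower signal could go unseen. Dmd, the dystrophin gene and the longest tested, was at 0.06 ± 0.14. Ptprd, a receptor tyrosine phosphatase gene with a high liver signal, was at 0.03 ± 0.10, and Dpyd, which encodes the pyrimidine-degrading dihydropyrimidine dehydrogenase, was at 0.05 ± 0.10. Rad51b, a homologous recombination gene of 544534 bases outside the 20 longest, was named after its value was seen. It was at -0.97 ± 0.28 and was not called (limma, adjusted p = 0.866). The median of the 61 genes over 500000 bases was -0.010 and that of the 2581 genes up to 10000 bases was -0.005.

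Single dosing gave another picture over the same genes. ME short minus SN short had a median of -0.001 in genes up to 10000 bases, -0.113 in the 854 genes of 100000 to 200000 bases, -0.186 in the 356 genes of 200000 to 500000 bases and -0.177 in the 61 longer ones. Of those 356 genes, 75.3% were below 0 after the single dose and 50.3% after repeated dosing. Set against the SN short mean, the median over the 417 genes beyond 200000 bases was -0.160, -0.271 and -0.165 in the 3 ME short rats. Against the SN long mean it was 0.018, -0.027 and -0.003 in the 3 ME long rats. All 3 ME short rats were lower in long genes, and the ME long rats lay on either side of 0. The beta-actin 3′ to 5′ signal difference, a measure of RNA integrity, was 2.22 to 2.29 in ME short and 2.53 to 2.67 in SN short, without overlap. The same measure for Gapdh was 0.43 to 0.53 in ME short and 0.57 to 0.68 in SN short, also without overlap. The part of RNA integrity in the single-dose result was not tested. In the long groups the beta-actin difference was 2.21 to 2.61 with ME and 2.39 to 2.64 with SN, which overlap.

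**Figure D2:**
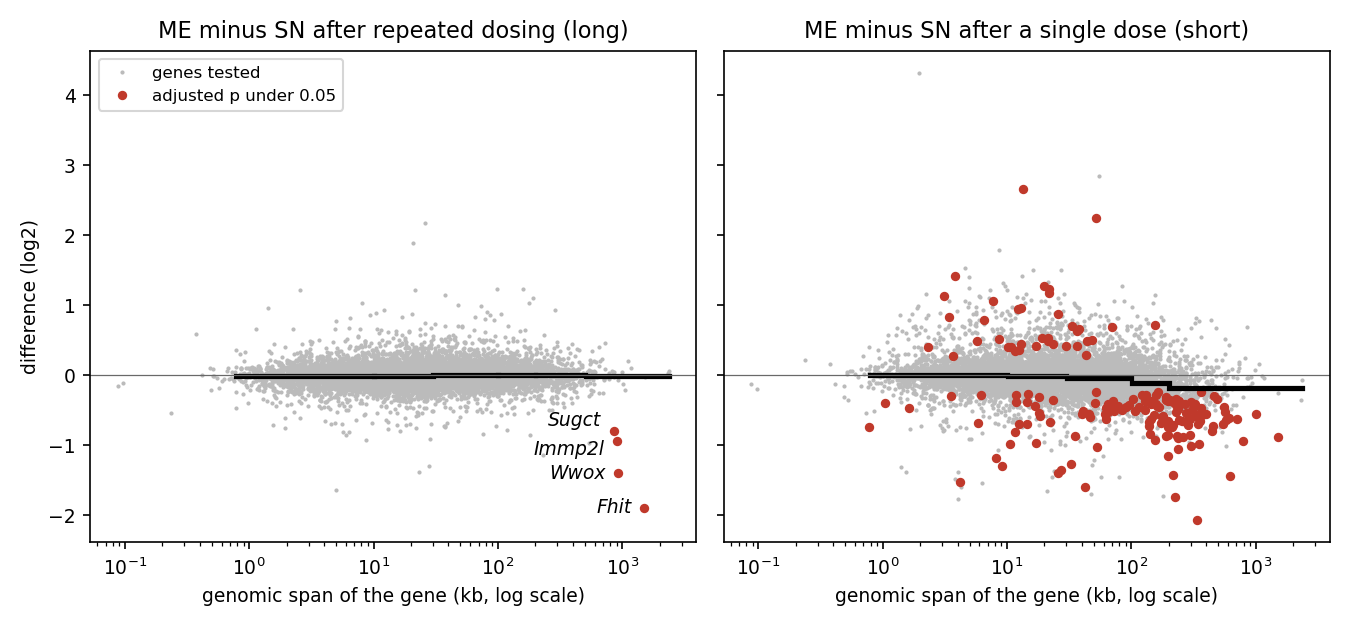
ME minus SN difference (log2, vertical axes) against the genomic span of each gene (kb, log scale), after repeated dosing on the left and a single dose on the right. Grey points are genes, red points are called genes and black bars are medians of 6 span classes; the bars stay near 0 on the left and drop to -0.186 and -0.177 in the longest classes on the right.

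The nearest tested genes on either side of the called genes, and tested genes overlapping them, were also read out. Some were distant, with gaps of up to 2658 kb, and the nearest to Fhit, Cep15, lay 1100 kb away. The 18 tested neighbours lay between -0.41 and 0.39, and 0 were called by limma (smallest adjusted p = 0.936), with every 95% interval including 0. Lrrn3, which lies within Immp2l, was at -0.41 ± 0.23. Maf, a transcription factor gene that overlaps the Wwox span, was at 0.17 ± 0.21, and Acox2, a peroxisomal oxidase gene beyond Fhit, was at 0.24 ± 0.16.

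Some genes came close to the threshold and are named after their values were seen. Rnf125, a ubiquitin ligase gene, was at 10.57, 10.76 and 10.65 with ME and at 8.90, 9.88 and 9.54 with SN, a difference of 1.22 ± 0.24 (limma, adjusted p = 0.118). Sulf2, a heparan sulfate endosulfatase gene, was at 0.91 ± 0.20 (adjusted p = 0.233), Sec22c, a vesicle transport gene, at 0.58 ± 0.12 (adjusted p = 0.212) and Ablim3, an actin-binding protein gene, at -0.79 ± 0.17 (adjusted p = 0.212). None was called in the main fit. Rnf125 was called without SN long rat 2, at 1.44, and Sulf2 without ME long rat 3, at 1.14. Sec22c was called in a fit of all 65 arrays, at 0.58 (limma, adjusted p = 0.0448).

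For most genes the 3 rats a group allowed only a modest difference between the compounds. The 95% interval of the difference lay within -0.5 to 0.5 for 8203 genes (80.3%) and within -1 to 1 for 9884 genes (96.8%). Measured differences beyond 1 in size were found in 17 genes, 11 higher and 6 lower. The 3 ME long and 3 SN long rats did not overlap in 1427 of the 10213 genes tested, so a lack of overlap was common. The SD of log2 differences between an ME long and an SN long rat was 0.219 to 0.288 over 9 pairs, and between rats of the same long group 0.242 to 0.280 over 6 pairs. ME long and ME short rats were further apart, at 0.347 to 0.534 over 9 pairs.

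Gene lists of pathways, enzyme families and cell types were then read against that background. Over 34 lists with 718 tested genes, limma called 0 members higher and 0 lower. At an unadjusted p under 0.05 there were 29 members (4.04%, against 5.43% of all genes), 10 higher and 19 lower. The interval lay within -1 to 1 for 607 of them, and their median difference was 0.002. A p that misses the threshold does not show that the compounds act alike, so the leading members are given as values, with all adjusted p-values from limma. These values often rest on single rats, since 43 of the 64 leading members moved by over 1.5 times when some rat was left out.

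Of 24 p53 targets tested, 1 had an unadjusted p under 0.05, as did 5.43% of all genes, and the list's median was 0.118. Cdkn1a, which encodes the cell cycle inhibitor p21, was at 7.60, 8.29 and 8.52 with ME and at 8.01, 6.07 and 7.65 with SN, a difference of 0.89 ± 0.39 (adjusted p = 0.882). SN rat 2 was the low one, and the groups overlap. Rprm, another cell cycle arrest gene, was at 0.96 ± 0.64. Mdm2, the p53 ubiquitin ligase gene, was at -0.06 ± 0.11 and Ccng1 at -0.09 ± 0.15, both with intervals within -0.5 to 0.5. Cdkn1a fell with duration in each compound, at -1.39 ± 0.39 with ME and -2.64 ± 0.39 with SN (adjusted p = 0.0214 and 0.00123). Of 26 DNA repair genes the lowest was Apex1, the abasic site endonuclease gene, at -0.41 ± 0.15 (adjusted p = 0.866), and all 26 intervals lay within -1 to 1.

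The drug metabolism lists had no called member. Of 20 CAR and PXR targets, the xenobiotic receptor genes' targets, 3 had an unadjusted p under 0.05, as did 5.43% of all genes. All 3 were higher with ME, and the list's median was 0.140, or 0.042 without SN long rat 1. Ces2c, a carboxylesterase gene, was at 0.55 ± 0.23 and Cyp3a9 at 0.55 ± 0.58. Cyp3a9 was at 7.54 in SN rat 1 and at 8.83 to 10.43 with ME, and its difference was -0.15 without that rat. Of 6 AHR targets, 34 NRF2 targets and 43 PPAR alpha targets, the medians were 0.079, 0.040 and 0.037. Nqo1, a quinone reductase gene, was at 0.30 ± 0.25, Trib3, a stress pseudokinase gene, at -0.69 ± 0.26, Retsat, a retinol saturase gene, at -0.93 ± 0.54 and the fatty acid transporter gene Cd36 at 0.79 ± 0.40. Of 21 UGTs and sulfotransferases, which conjugate drugs, Ugt2b had the widest difference, 1.88 ± 1.87. Its signal was 12.90, 12.89 and 12.98 with ME and 12.81, 7.37 and 12.94 with SN, so the difference rests on SN rat 2. Sult2a6 was at 0.70 ± 0.50. Among 21 glutathione transferases Gstt3 was at -0.57 ± 0.35, among 17 aldo-keto and carbonyl reductases Akr1b7 was at 0.55 ± 1.44, and among 15 ABC efflux transporters Abcg5 was at -0.47 ± 0.50.

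**Figure D3:**
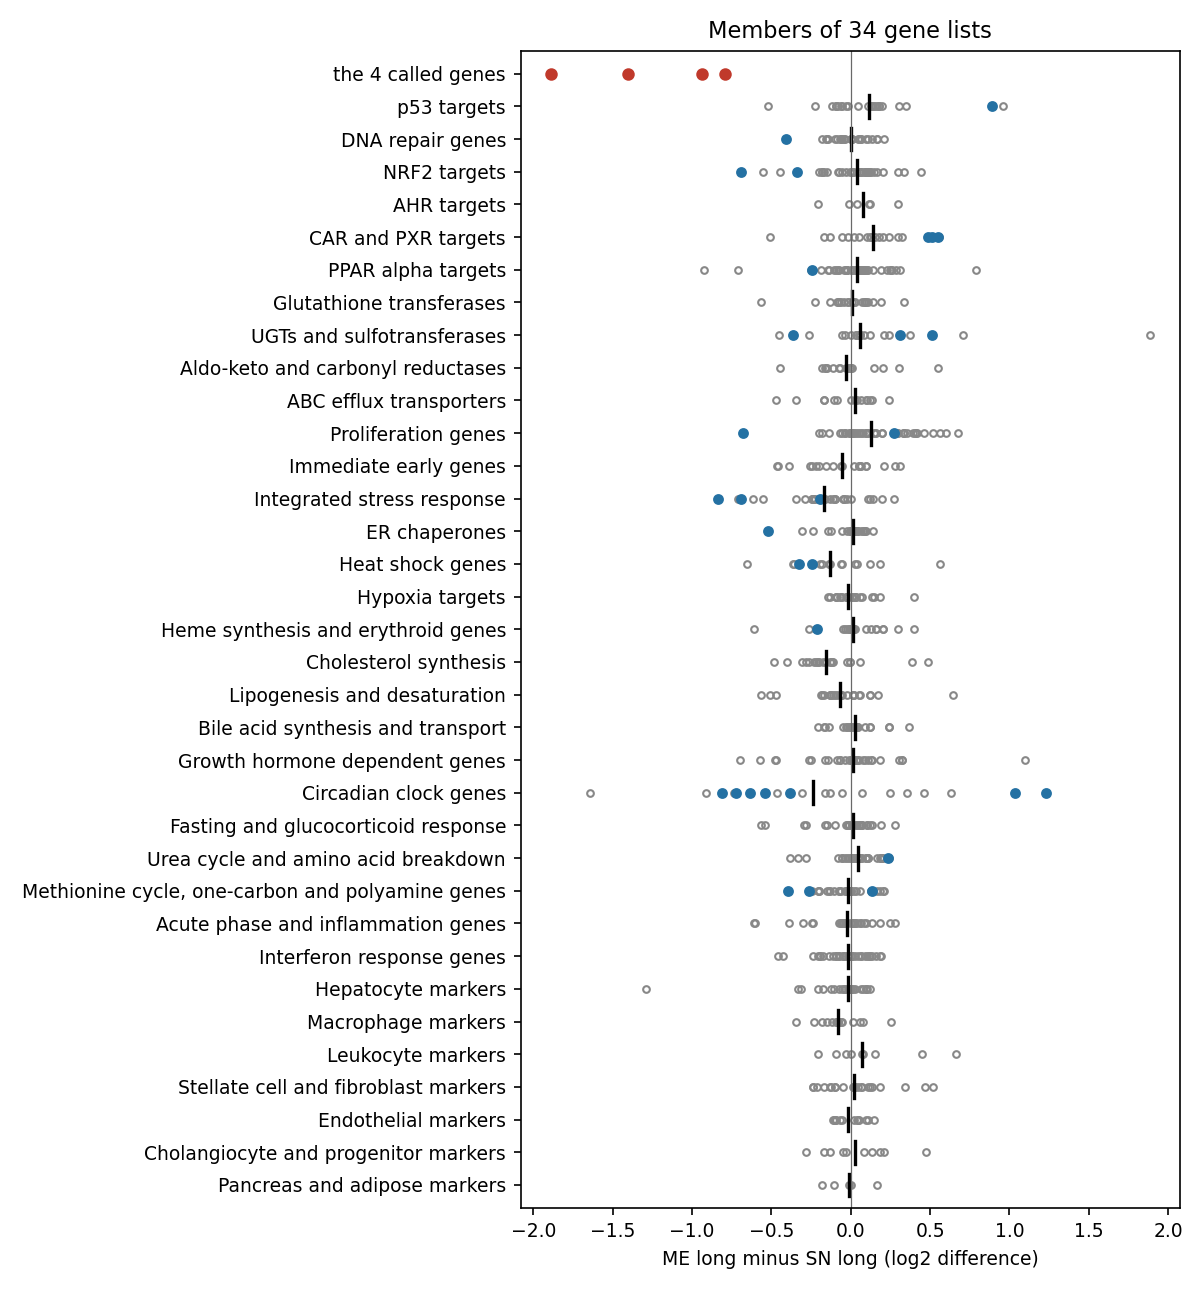
ME long minus SN long difference (log2, horizontal axis) of every tested member of the 34 gene lists, with the 4 called genes in red on top, members at an unadjusted p under 0.05 in blue, other members open, and a black bar at each list's median. The called genes lie at -1.89 to -0.79, and the list medians lie between -0.235 and 0.140.

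Stress and growth lists had no called member either. Of 31 integrated stress response genes, 3 were at an unadjusted p under 0.05, as were 5.43% of all genes. All 3 were lower with ME, and the list's median was -0.166. Slc7a1, a cationic amino acid transporter gene, was at -0.84 ± 0.35 and the hormone gene Fgf21 at -0.71 ± 0.47. Among 24 ER chaperone genes Xbp1, a transcription factor gene of the unfolded protein response, was at -0.52 ± 0.21 (adjusted p = 0.867). Among 16 heat shock genes Hspa1a was at -0.66 ± 0.68. Of 44 proliferation genes the median was 0.127. Ccnd1, the cyclin D1 gene, was at 8.38, 8.43 and 8.46 with ME and at 9.49, 9.02 and 8.79 with SN. Its difference was -0.68 ± 0.25 (adjusted p = 0.866). The groups did not overlap for Ccnd1, as for 1427 of the 10213 genes tested. Ccna2, the cyclin A gene, was at 0.68 ± 0.48, and at 0.09 without SN rat 3. Among 21 immediate early genes Egr1 was at -0.47 ± 0.54, and at -0.03 without ME rat 1. Among 23 hypoxia targets the transferrin receptor gene Tfrc was at 0.40 ± 0.22.

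Liver metabolism lists were alike in having no called member. Among 21 cholesterol synthesis genes Insig1 was at 0.49 ± 0.35 and the squalene epoxidase gene Sqle at -0.48 ± 0.31. Among 25 lipogenesis genes the acyltransferase gene Gpam was at 0.65 ± 0.44, and among 26 fasting and glucocorticoid genes Lpin1 was at -0.56 ± 0.38. Cyp7a1, the rate-limiting enzyme of bile acid synthesis, was at 0.36 ± 0.55 among 23 bile acid genes. The prolactin receptor gene Prlr was at 1.10 ± 0.74 among 31 growth hormone dependent genes, with SN rats at 7.45, 10.94 and 9.25. Among 37 urea cycle and amino acid genes Oat was at -0.38 ± 0.23, among 32 methionine cycle genes Mat2a was at -0.39 ± 0.15, and among 23 heme and erythroid genes the iron hormone gene Hamp was at -0.61 ± 0.49. Hamp is also the lowest of 33 acute phase genes, and Ifi44l, at -0.46 ± 0.32, is the lowest of 34 interferon response genes.

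The clock list had the largest share of members at an unadjusted p under 0.05, 7 of 20, against 5.43% of all genes. Of these 7, 2 were higher and 5 lower with ME. The list was singled out among the 34 after the values were seen. Bmal1 encodes a core activator of the clock. It was at 6.53, 7.23 and 7.23 with ME and at 5.91, 5.38 and 6.00 with SN, a difference of 1.23 ± 0.47 (adjusted p = 0.866). The groups do not overlap, as in 1427 of the 10213 genes tested. Npas2, the gene of a partner of Bmal1, was at 1.04 ± 0.48 (adjusted p = 0.912). Dbp, an output gene of the clock, was at 9.12, 7.33 and 6.98 with ME and at 9.29, 9.72 and 9.36 with SN, a difference of -1.64 ± 0.84 (adjusted p = 0.912). ME rat 1 was near the SN rats and the other two ME rats were well below. The repressor genes Bhlhe40 and Nr1d1 were at -0.81 ± 0.27 and -0.63 ± 0.30, Nampt, which makes an NAD precursor, at -0.72 ± 0.29, and the output genes Tef and Hlf at -0.54 ± 0.25 and -0.38 ± 0.16. These members beyond Bmal1 and Dbp are named after their values were seen. The list's median was -0.235, and -0.390 without ME long rat 1.

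**Figure D4:**
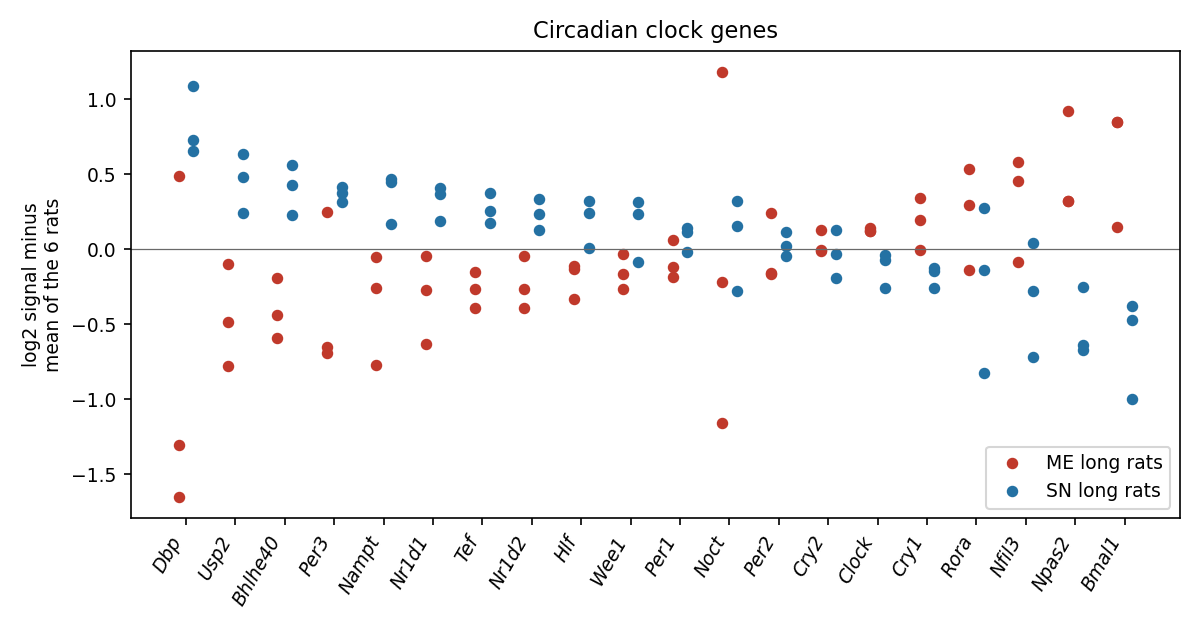
Log2 signal of the 20 tested circadian clock genes in each long rat, minus the mean of the 6 rats (vertical axis), with genes ordered from the lowest to the highest ME minus SN difference; red points are ME and blue points SN. Dbp is at -1.64 on the left and Bmal1 at 1.23 on the right, and no gene in the plot was called.

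Markers placed both groups as liver. Of 24 hepatocyte markers tested, 0 were called by limma and 0 had an unadjusted p under 0.05, and 23 had an interval within -1 to 1. The albumin gene Alb was at 14.69 ± 0.03 with ME and 14.62 ± 0.13 with SN (SD, n = 3), and the transthyretin gene Ttr at 13.98 in each. Onecut1, a hepatocyte transcription factor gene, was at 7.64, 6.82 and 9.45 with ME and at 7.54, 9.94 and 10.30 with SN, a spread within each group as wide as the difference of -1.29 ± 0.93. Markers of other cell types had medians of -0.081 (16 macrophage), 0.071 (9 leukocyte), 0.024 (23 stellate and fibroblast), -0.019 (14 endothelial), 0.025 (10 cholangiocyte and progenitor) and -0.011 (5 pancreas and adipose), with 0 called and 0 at an unadjusted p under 0.05. The mean level of the macrophage list was 8.86 to 8.97 over ME long rats and 8.82 to 9.13 over SN long rats. From ME short to ME long, 13 of these 16 macrophage markers and 11 of 34 interferon genes fell, beside 8.23% of all genes called lower there. Their part in the duration comparison was not tested. The largest macrophage difference between ME long and SN long was Gpnmb at -0.34 ± 0.45. Among the other lists S100a8 was at 0.67 ± 0.50, Timp1 at 0.52 ± 0.47, Pecam1 at 0.14 ± 0.19, Krt19 at 0.47 ± 0.33 and Ins1 at -0.18 ± 0.15. The Gapdh 3′ to 5′ difference was 0.50, 0.84 and 0.82 with ME and 0.68, 0.65 and 0.69 with SN, which overlap.

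More genes were called between the compounds after a single dose. ME short minus SN short had 173 called genes (1.69%), 37 higher and 136 lower with ME, and this count was 56 without SN short rat 2, 100 without SN short rat 1 and 291 without ME short rat 2. Without ME short rat 2 the split was 184 higher and 107 lower. With only the 6 compared arrays 0 genes were called by limma, with 1136 at an unadjusted p under 0.05. Alas1, the rate-limiting enzyme gene of heme synthesis, was at 12.33, 12.94 and 10.47 with ME short and at 9.54, 9.52 and 8.72 with SN short, a difference of 2.65 ± 0.41 (limma, adjusted p = 0.00261). After repeated dosing Alas1 was at 0.30 ± 0.41. Trim36, a ubiquitin ligase gene, was higher by 2.24 ± 0.45, Ly6c, a leukocyte surface antigen gene, by 1.42 ± 0.31 and the uridine phosphorylase gene Upp1 by 1.28 ± 0.31. Without ME short rat 1 these became 0.90 for Ly6c (adjusted p = 0.0618) and 0.66 for Upp1 (adjusted p = 0.0392). Plcl1, a phospholipase C-like gene, was lower at -2.07 ± 0.17, Pdzrn3 at -1.74 ± 0.36, A2ml1, an alpha-2-macroglobulin-like gene, at -1.60 ± 0.40 and the transcription factor gene Bhlha15 at -1.52 ± 0.36. Alas1 and Plcl1 were called without each rat in turn, and each of the other 6 lost its call without some rat (limma, adjusted p up to 0.217). In the same comparison the macrophage markers had a median of 0.884. Of these 16 markers 13 were higher at an unadjusted p under 0.05, as were 6.30% of all genes, and 0 were called by limma. Their mean level was 10.67, 9.40 and 9.81 in ME short and 8.95, 9.09 and 9.42 in SN short. The median was 0.462 for 9 leukocyte markers, 4 of them higher at an unadjusted p under 0.05, and 0.345 for 34 interferon genes, 12 of them higher, with 0 called. Their part in the single-dose result was not tested. After repeated dosing Trim36, Ly6c, Upp1, Plcl1, Pdzrn3, A2ml1 and Bhlha15 lay between -0.45 and 0.69 and none was called.

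The test of a change between durations called 12 genes (0.117%), 9 higher and 3 lower, and the count was 7 without ME long rat 3 or SN long rat 1, 19 without ME short rat 1, 21 without SN short rat 3 and 78 without ME short rat 3. Lower were Fhit, Wwox and Lysmd2. Lysmd2 was at -0.54 ± 0.14 after repeated and 0.52 ± 0.14 after single dosing, with neither called. All 9 higher genes were called lower with ME after the single dose, as were 1.33% of all genes, and 0 of them were called after repeated dosing. The test of a change contains the single-dose difference with its sign reversed, on the same arrays. The count of 9 therefore largely restates the single-dose calls and is no separate result. Stxbp6, a syntaxin-binding protein gene, was at 6.61, 6.83 and 7.12 in ME short and at 8.02, 7.84 and 7.86 in SN short, and then at 8.56, 8.31 and 8.32 in ME long and 8.39, 8.31 and 8.42 in SN long. ME short was the low group. Plcl1 was at 6.96, 7.09 and 7.17 in SN short, 5.33, 4.82 and 4.86 in ME short, 5.27, 5.33 and 5.42 in ME long and 5.80, 5.84 and 5.75 in SN long, so here SN short was the high group. Rcan2, a calcineurin regulator gene, changed by 1.82 ± 0.29, and Myo6, a myosin gene, by 1.00 ± 0.17. Myo6 lost its call without ME short rat 2, ME long rat 3 or SN long rat 1 (adjusted p up to 0.0638), and Stxbp6 without SN short rat 1 (adjusted p = 0.0527). Among the 136 genes called lower after the single dose, 35 spanned 100000 to 200000 bases, 42 spanned 200000 to 500000 and 10 spanned more. Of the 9 genes, all among these 136, 8 span over 100000 bases, as do 12.5% of all tested genes with a span. The exception was Ero1a, an ER oxidase gene of 35 kb, whose SN level fell with duration by 0.75 ± 0.10 (adjusted p = 0.000852).

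**Figure D5:**
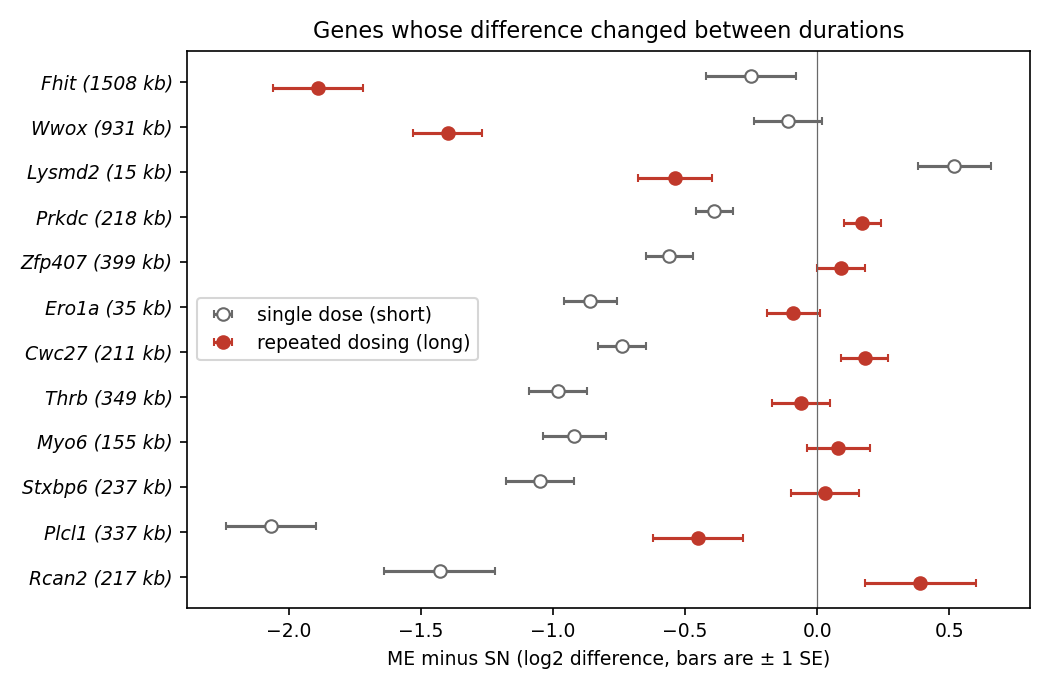
ME minus SN difference (log2 ± 1 SE, horizontal axis) after a single dose (open) and after repeated dosing (filled) for the 12 genes called in the test of a change between durations, with each gene's span in kb. Fhit and Wwox move away from 0 after repeated dosing, at -1.89 and -1.40, while Myo6 and Stxbp6 are near 0 there, at 0.08 and 0.03.

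More genes were called between the durations of a compound than between the compounds. ME long minus ME short had 896 genes higher and 841 lower, and SN long minus SN short had 174 higher and 322 lower. With another quantile normalization the SN split was 229 higher and 275 lower. The ME count was 890 without ME short rat 1 and 898 without ME long rat 2. The SN count was 248 and 165 without SN short rats 2 and 3, and 193, 254 and 165 without SN long rats 1, 2 and 3. With ME, the serine dehydratase gene Sds (-2.98 ± 0.82), Trim36 (-2.50 ± 0.45), the homeodomain gene Hopx (-2.22 ± 0.45) and the immediate early gene Egr1 (-2.20 ± 0.54) fell. The serine synthesis gene Phgdh (2.14 ± 0.48), the activin subunit gene Inhba (2.00 ± 0.55), the phosphate transporter gene Slc34a2 (1.96 ± 0.64) and the nuclear receptor gene Esrrg (1.89 ± 0.36) rose. With SN, Egr1 (-3.21 ± 0.54), Cdkn1a (-2.64 ± 0.39), the taurine transporter gene Slc6a6 (-2.23 ± 0.46) and the lipoprotein lipase gene Lpl (-2.18 ± 0.31) fell. Tsku (1.93 ± 0.41), Phgdh (1.84 ± 0.48), Alas1 (1.70 ± 0.41) and the asparagine synthetase gene Asns (1.69 ± 0.40) rose. With a rat left out, Trim36, Hopx, Phgdh and Esrrg kept their call with ME and Egr1, Cdkn1a and Lpl with SN, each time. The other named genes of either compound lost it without some rat (limma, adjusted p up to 0.166). Between ME long and SN long these genes lay within -0.70 to 0.99, and none was called.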

How the data were processed

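The deposited values are log2 signals per probe set that the authors made with RMA, per the series' design text; the version is not given in the sources used here. In RMA the background is corrected, arrays are quantile-normalized and probes are summarised per probe set. Array minima differed between the genotoxic (3.3312 to 3.412), nongenotoxic (3.2294 to 3.3046) and test set (2.2774 to 2.3995), so each appears to have been normalized apart, and fits used the 24 test-set arrays alone. Of 31099 probe sets 20826 had 1 gene symbol, 436 several and 9780 none, and 57 controls were left out. A gene (14217) was given by its single-symbol probe set with the highest mean. It was tested if above log2 5.65, the test-set median, in at least 2 arrays. The packages limma 3.58.1 and data.table (version 1.17.8) ran in R 4.3.3. The limma model fitted 1 mean per group with plain eBayes (16 residual and 2.95 prior degrees of freedom), two-sided, and was tested on simulated data. Tables and figures used Python 3.11.15, pandas 2.3.3, numpy 2.4.6 and matplotlib 3.10.9. The number of arrays limits the precision.

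Named genes are the called genes, the 2 members of each list with the largest difference where none was called (some lists are shown by 1), and the 4 highest and 4 lowest called genes without overlap of arrays in the other comparisons. Mdm2, Ccng1, Alb and Ttr were added by role after values were seen, and Rad51b was also added after its value was seen. The comparison and the lists were chosen with earlier results of these data known. Spans and promoters come from RefSeq (GRCr8) and were looked at after values were seen. The alternatives changed the filter (none, or log2 7.70), averaged a gene's probe sets, or used robust eBayes with a trend, a further quantile normalization, median centring, only the compared arrays, all 65 arrays, a replicate block and each rat left out.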

Additional observations from a re-analysis of the deposited data

Results flagged for a closer look

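The ME minus SN difference changed between single and repeated dosing in 12 genes, by the limma test of the change itself. The change was -1.64 for Fhit, -1.29 for Wwox and -1.06 for Lysmd2. It was 0.56 for Prkdc, 0.65 for Zfp407, 0.77 for Ero1a, 0.92 for Thrb and 0.92 for Cwc27. It was 1.00 for Myo6, 1.08 for Stxbp6, 1.61 for Plcl1 and 1.82 for Rcan2. Fhit and Plcl1 were called under every alternative in which they were tested. Wwox, Cwc27 and Rcan2 lost the call only with the compared arrays alone (adjusted p = 0.116, 0.104 and 0.116). Lysmd2, Prkdc and Zfp407 lost it in 12 of 21, 12 of 21 and 14 of 20 alternatives. Ero1a lost it in 9 of 21, Thrb in 6, Myo6 in 5 and Stxbp6 in 3.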

How the results depend on the processing

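The 4 calls between ME long and SN long were made again with no filter, trend and robust eBayes, both rescalings and the replicate block. With the stricter filter 2 were called, since Fhit and Wwox fell under it. With the mean of all probe sets Wwox fell under the filter. Leaving out a rat gave 3 to 5 calls. Called in addition were Rnf125 without SN long rat 2 (1.44, adjusted p = 0.0383), Sulf2 without ME long rat 3 (1.14, adjusted p = 0.0198) and Sec22c with all 65 arrays (0.58, adjusted p = 0.0448). The cause was not tested. ME short minus SN short gave 103 calls with the stricter filter, 0 with only the compared arrays (limma, 1136 at an unadjusted p under 0.05) and 56 to 291 with a rat left out. The change between durations gave 4 with only the compared arrays, 20 with all 65 arrays and 7 to 78 with a rat left out. ME long minus ME short gave 161 and SN long minus SN short 232 with only the compared arrays, and 890 to 1934 and 165 to 471 with a rat left out. Same-numbered rats did not deviate together (correlations -0.34 to 0.19), so no pairing by number was seen. With 3 rats a group these correlations cannot show that none exists. With the replicate block the counts were 4, 154, 11, 1647 and 452 in the order above. Uncalled genes changed sign without 1 rat: Nqo1 (-0.03, without ME long 2), Cyp3a9 (-0.15, SN long 1), Akr1b7 (-0.57, ME long 3, with -0.35 and -0.36 for SN long 1 and 3), Abcg5 (0.13) and Abcg8 (0.27, SN long 1), A1bg (0.23, SN long 2), Lox (-0.09, ME long 3) and Fcgr2b (0.10, ME long 2, and 0.08, SN long 2). The other ends of their ranges were 0.63 for Nqo1, 1.25 for Cyp3a9, 2.36 for Akr1b7, -0.80 for Abcg5, -0.70 for Abcg8, -1.29 for A1bg, 0.85 for Lox and -0.27 for Fcgr2b. Of the single-gene values 1240 kept direction and side of the threshold and 69 lost their call.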
